A study of Mus musculus with 6 samples.

Results

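Chorioallantoic fusion genes are genes whose loss in the mouse blocks growth of the allantois or its attachment to the chorion. The 10 genes considered were Vcam1, Itga4, Tbx4, Foxf1, Dnajb6, Wnt7b, Lef1, Tcf7, Cdx2 and Cdx4, and every probe set that the platform annotation ties to 1 of these symbols alone was taken. This gave 23 of the 45101 probe sets, which cover 9 of the 10 genes, and Tcf7 was not analysed here. Expression was measured on Affymetrix whole-genome mouse arrays in 3 RFC1-/- and 3 RFC1+/+ whole embryos at embryonic day 9.5, with 1 embryo of each genotype from each of 3 litters. The RFC1-/- embryos lack both working copies of the reduced folate carrier gene (Slc19a1), and the labels describe them as having craniorachischisis, an open neural tube, and no chorioallantoic fusion. Their RFC1+/+ littermates carry no targeted allele and are labelled normal at the neural tube and the chorioallantois. All dams were heterozygous on the inbred SWV background and had received folic acid daily at 25 mg/kg from the first day after mating, so both genotypes share this treatment. The methods state that embryos were freed of the decidual capsule with its chorion and amnion, and that other extraembryonic membranes went to genotyping. Values below are therefore levels in the embryo with whatever remained attached to it. No source used here gives the somite stage, so genotype and stage cannot be told apart.

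The allantois is a bud of posterior mesoderm that grows out of the embryo, meets the chorion and supplies the blood vessels of the umbilical cord and placenta. Attachment rests on VCAM1, an adhesion molecule on the allantois, and on the alpha4 integrin chain encoded by Itga4, its receptor on the chorion. In mice Tbx4 and Foxf1 are transcription factors of the allantoic mesoderm that are needed for its growth or for its Vcam1 expression, and Cdx2 and Cdx4 are caudal homeobox factors of the posterior body. Wnt7b, a ligand made by the chorion, and Dnajb6, a co-chaperone known as Mrj in the placenta, act on the chorionic side, while Lef1 and Tcf7 are nuclear partners of beta-catenin that carry Wnt signals.

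Slc19a1, the targeted gene, read 9.97, 10.10 and 9.84 (log2 units) in RFC1-/- embryos of litters 1, 2 and 3, against 9.11, 9.10 and 8.89 in their RFC1+/+ littermates. It was higher in every RFC1-/- embryo, and because the removed part of the gene is not stated, this probe set does not check the genotypes. Array medians ranged over 5.43 to 5.49, and having only 6 arrays limits the precision. Y-linked genes averaged 6.16, 6.12 and 3.85 across litters 1, 2 and 3 in RFC1-/- embryos, against 6.10, 3.89 and 6.26 in RFC1+/+ embryos, so both embryos of litter 1 read as male, while litters 2 and 3 each paired a male with a female. A level at or under 5.14, the 95th percentile of 44 olfactory receptor probe sets, is called background level below. Of 5 decidua markers Cryab was higher in RFC1-/- embryos (log2 difference 0.93, limma, adjusted p = 0.0121, lost at 0.0529 without litter 1) and none was lower, with a list median of 0.33 and list means of 6.55 to 7.50 in RFC1-/- and 6.53 to 7.71 in RFC1+/+ embryos. Another, Prl8a2, a decidual prolactin of the mother, measured 5.30, 4.49 and 7.84 in the RFC1-/- embryos and 11.17, 5.68 and 6.66 in the RFC1+/+ embryos. Differences lay above 0 for 3 of the 5 markers and below 0 for 2, Prl8a2 (-1.96) and another prolactin, Prl3c1 (-0.03). Prl3c1 was at background level in both genotypes. Visceral endoderm markers, which belong to the yolk sac epithelium, were higher in RFC1-/- embryos for 14 of 14 genes (median log2 difference 3.87), with list means of 9.62 to 11.52 in RFC1-/- and 6.26 to 7.63 in RFC1+/+ embryos. Their part in the results on the fusion genes was not tested. In RNA of whole embryos, fewer cells of a type and less RNA per cell cannot be told apart.

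Among the fusion genes, Vcam1 was the only one that passed an adjusted p of 0.05 on its brightest probe set, and it was higher in RFC1-/- embryos. None of the 9 measured genes was called lower. One limma fit over 18194 genes, each on its brightest probe set, with the litter as a block, gave these calls, and 5.32% of all genes passed in it, 3.67% higher and 1.65% lower. A count of 1 in 9 is thus near the background and is not a result about the group. The median log2 difference of the 9 genes was 0.35, beside -0.02 over all genes. By litter it was 0.39, 0.30 and -0.14 in litters 1, 2 and 3, and without litter 2 the median of the 9 differences was 0.17. The RFC1-/- and RFC1+/+ values did not overlap for Vcam1, Tbx4 and Lef1, 3 of the 9 genes, against 26.2% of all genes. The largest differences in size were those of Tbx4, Cdx4 and Cdx2, none of which passed the threshold. The 95% intervals of all 9 differences, unadjusted for the number of genes, lay above -1 on the log2 scale, and the lowest limit was -0.58 for Wnt7b. The same held under 13 of 14 alternative settings, with the exception of the variation filter, under which Lef1 is read on its dimmer probe set and its interval reached -1.17.

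**Figure D1:**
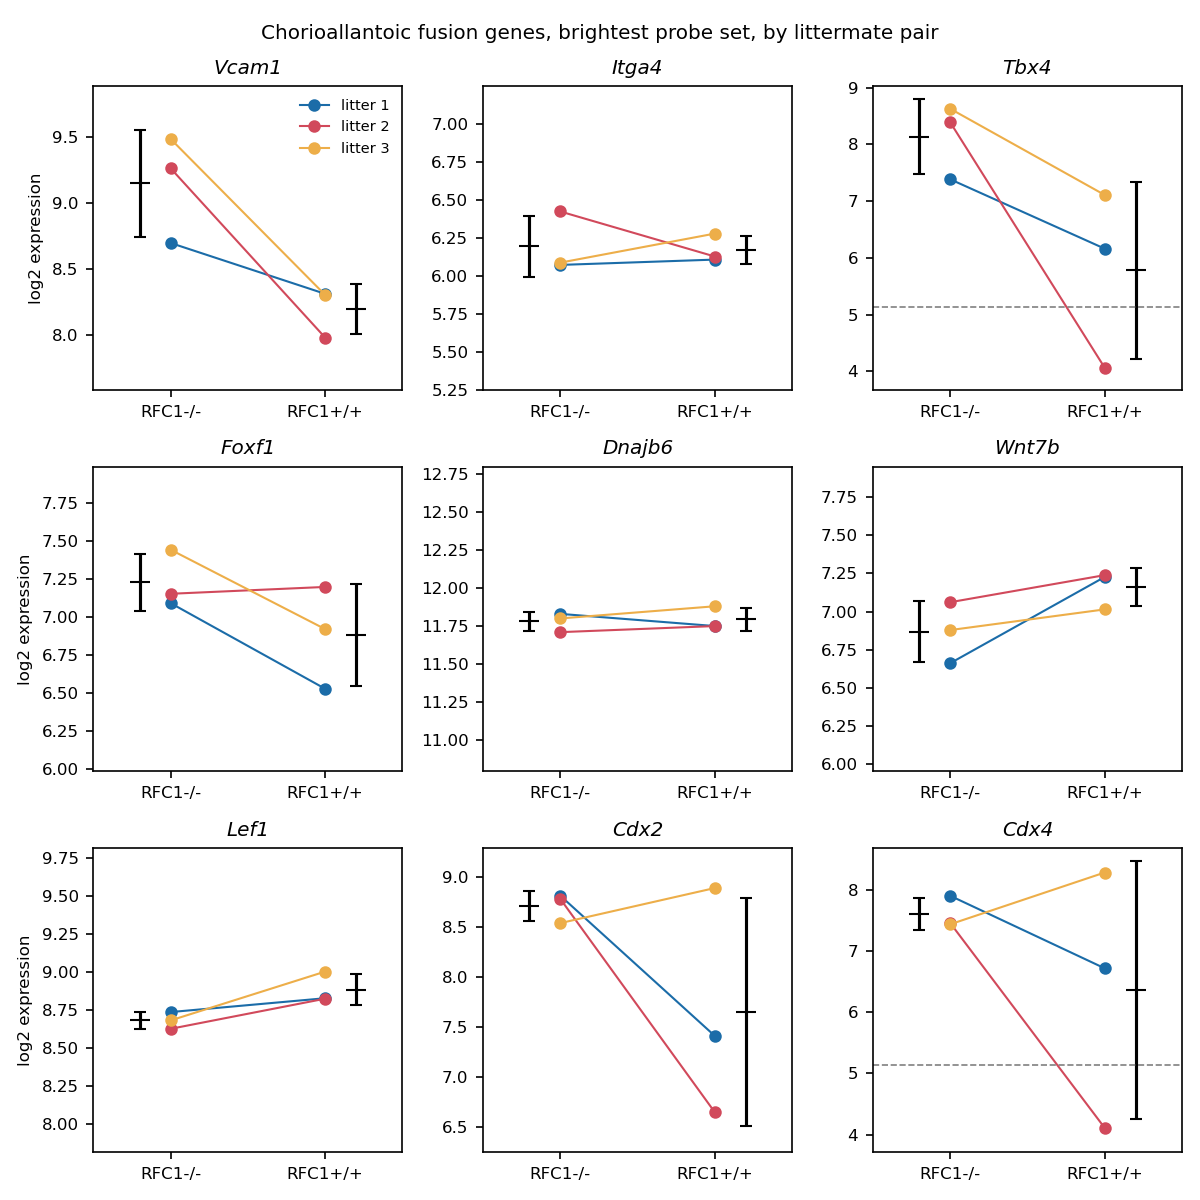
Log2 expression (y axis, scaled for each gene) of the 9 measured fusion genes on their brightest probe sets in RFC1-/- embryos (left) and RFC1+/+ embryos (right), with lines joining littermates, black bars for mean ± SD of 3 embryos and a dashed line at the background level of 5.14 where it falls in range. Vcam1 and Tbx4 are higher in the RFC1-/- embryo of each litter, and the RFC1+/+ embryo of litter 2 has the lowest Tbx4, Cdx2 and Cdx4.

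Vcam1 read 8.70, 9.26 and 9.48 (log2 units) in RFC1-/- embryos of litters 1, 2 and 3, against 8.31, 7.98 and 8.30 in the RFC1+/+ embryos. The groups did not overlap, and litter 1 had the smallest of the pair differences at 0.39, beside 1.28 in litter 2 and 1.18 in litter 3. Its level was thus 1.93-fold higher in RFC1-/- embryos, a log2 difference of 0.95 with a standard error of 0.18 and a 95% interval of 0.52 to 1.38 (limma, adjusted p = 0.0335). With litter 2 or litter 3 left out the call was lost (limma, adjusted p = 0.0925 and 0.0519), and with litter 1 left out it held (adjusted p = 0.0107). Smaller differences of 0.44 and 0.11 came from its other probe sets (limma over all probe sets, adjusted p = 0.126 and 0.749), and the first of these also did not overlap between the genotypes. VCAM1 is made by activated endothelium and early blood vessels as well as by the allantois. Of 10 endothelial markers 6 were higher in RFC1-/- embryos and none was lower, with a median log2 difference of 0.61. By litter this median was 0.54, 0.78 and 0.58 in litters 1, 2 and 3, beside Vcam1 differences of 0.39, 1.28 and 1.18. Erg, an endothelial transcription factor, was 1.89-fold higher, Kdr, the VEGF receptor, 1.79-fold, and Sox18 and Tek, an angiopoietin receptor, 1.69-fold and 1.62-fold (adjusted p = 0.00737, 0.00941, 0.0123 and 0.0130 from limma). Tek did not pass without litter 1 (adjusted p = 0.0673), and the count of 6 became 3 without litter 1 and 4 without litter 2. The list means of the endothelial markers were 7.74 to 7.91 in RFC1-/- and 7.21 to 7.32 in RFC1+/+ embryos, and their part in the Vcam1 difference was not tested.

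Itga4, the integrin chain that VCAM1 binds, had a difference close to 0 in these embryos. The methods state that they were freed of the chorion, so this does not give its level there. Its brightest probe set measured 6.07, 6.42 and 6.09 in the RFC1-/- embryos and 6.11, 6.13 and 6.28 in the RFC1+/+ embryos, so that the groups overlapped. The log2 difference was 0.02 with a 95% interval of -0.27 to 0.32 (adjusted p = 0.963 from limma), and its sign turned without litter 2. The 5 probe sets of Itga4 differed by between -0.11 and 0.16, and 3 of them were at background level in both genotypes. Of 11 measured partners in adhesion, integrin chains, their ligands and focal adhesion proteins, 1 was higher, none was lower and the median log2 difference was 0.10. That gene was Fn1, fibronectin, a matrix ligand that alpha4 integrin also binds, with 12.68, 12.56 and 12.85 in the RFC1-/- embryos against 11.85, 11.75 and 12.10 in the RFC1+/+ embryos. Fn1 was 1.74-fold higher in RFC1-/- embryos, with groups that did not overlap (adjusted p = 0.00969 from limma, 0.0521 without litter 1). Itgb1, the beta chain that pairs with alpha4, had a log2 difference of 0.37 (adjusted p = 0.154), and Itga9, another integrin chain that binds VCAM1, of -0.30 (adjusted p = 0.238).

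Tbx4, the T-box factor of the allantois and later of the hindlimb, had the largest difference of the fusion genes. It read 7.39, 8.39 and 8.63 (log2 units) in RFC1-/- embryos of litters 1, 2 and 3, against 6.16, 4.06 and 7.11 in the RFC1+/+ embryos. Every RFC1-/- embryo was above every RFC1+/+ embryo, and the RFC1+/+ embryo of litter 2 was at background level. The mean difference was 2.36 (standard error 0.54, 95% interval 1.07 to 3.65), a ratio of 5.13, and it missed the threshold (adjusted p = 0.0604 from limma). Without litter 2 the difference shrank to 1.37 and passed (adjusted p = 0.00409), with close values of 1.22 in litter 1 and 1.52 in litter 3. Tbx4 also passed without litter 1 (2.93, adjusted p = 0.0329), without litter 3 (2.78, adjusted p = 0.0333) and in 3 further settings, 6 of 14 in all. Adjusted p ran from 5.06e-09 to 0.0871 over the 14 settings. The lowest came with the variation filter, where the fit gave the fusion genes the same standard error, whatever their own spread between litters. Its other probe set, at background level, was also higher in each RFC1-/- embryo, with a difference of 0.58 (limma over all probe sets, adjusted p = 0.121). No gene of a list for the limb fields, which holds Pitx1, Tbx5, Fgf10, Isl1, Fgf8 and Hoxc10, passed in either direction, and the median of this list was 0.07. Without litter 2, Hoxc10 was called lower and the median was -0.03. Tbx5 belongs to the forelimb, and Fgf10 and Fgf8 were at background level in both genotypes, so the list says little about the hindlimb.

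Foxf1, a forkhead factor of splanchnic and allantoic mesoderm, measured 7.09, 7.15 and 7.44 in the RFC1-/- embryos and 6.53, 7.20 and 6.92 in the RFC1+/+ embryos. The groups overlapped, and the RFC1+/+ embryo of litter 2 was as high as its littermate. The log2 difference was 0.35 with a 95% interval of 0.01 to 0.69 (limma, adjusted p = 0.261), and a second probe set gave 0.01. Among 16 measured factors and signals of lateral plate mesoderm, the wider tissue of Foxf1, 3 were higher, 1 was lower and the median log2 difference was 0.30. Bmp4, a signal needed for the allantois, was 2.18-fold higher, and Gata4 and Gata6, factors of heart and endoderm as well as of this mesoderm, were 1.49-fold and 1.43-fold higher in RFC1-/- embryos (adjusted p = 0.0251, 0.0252 and 0.0346 from limma). Prrx1, a homeobox factor of mesenchyme and limb, was 2.09-fold lower (adjusted p = 0.00523), with 8.66, 8.52 and 8.32 in the RFC1-/- embryos against 9.79, 9.57 and 9.33 in the RFC1+/+ embryos. Prrx1 kept its call without any of the litters, whereas the 3 higher calls ended without litter 1 (adjusted p = 0.0790, 0.165 and 0.145) and without litter 2 (adjusted p = 0.0516, 0.0863 and 0.130).

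Cdx2 and Cdx4, which set posterior identity and drive growth of the caudal body and allantois, were higher in the RFC1-/- embryo in litters 1 and 2 and lower in litter 3. Cdx2 read 8.81, 8.78 and 8.54 (log2 units) in RFC1-/- embryos of litters 1, 2 and 3, against 7.41, 6.64 and 8.89 in the RFC1+/+ embryos. Cdx4 measured 7.90, 7.46 and 7.43 in the RFC1-/- embryos, against 6.72, 4.11 and 8.28 in the RFC1+/+ embryos. For both genes the RFC1-/- embryos lay close together, within a range that the RFC1+/+ embryos exceeded on both sides, and the SD was 0.15 in RFC1-/- and 1.14 in RFC1+/+ embryos for Cdx2, and 0.26 in RFC1-/- and 2.11 in RFC1+/+ embryos for Cdx4 (n = 3 each). The log2 difference of Cdx2 was 1.06 (95% interval 0.09 to 2.04, adjusted p = 0.226 from limma) and that of Cdx4 was 1.23 (95% interval -0.35 to 2.80, adjusted p = 0.406). Without litter 3 both passed, at 1.77 for Cdx2 (adjusted p = 0.00195) and 2.27 for Cdx4 (adjusted p = 0.0195). Without litter 2 the differences fell to 0.53 and 0.17 (adjusted p = 0.577 and 0.921). In litter 1, where both embryos read as male, the differences were 1.40 for Cdx2 and 1.19 for Cdx4, an X-linked gene. In litters 2 and 3, where the sexes differed, they were 2.13 and -0.35 for Cdx2 and 3.35 and -0.85 for Cdx4. The part of embryo sex cannot be told from a single pair of like sex. The second probe set of Cdx2 was at background level and differed by 0.08. Cdx2 is also a factor of the hindgut, and 8 of 10 markers of hindgut and other definitive endoderm were higher in RFC1-/- embryos (6 without litter 1) and none lower, with list means of 9.04 to 9.40 in RFC1-/- and 8.02 to 8.37 in RFC1+/+ embryos. Nepn, a marker of mid- and hindgut, was 3.44-fold higher, Cldn6, a tight junction protein, 2.74-fold, Foxa1 2.61-fold and Sox17 2.54-fold (adjusted p = 0.00519, 0.00523, 0.00798 and 0.00342 from limma). Epcam and Trh did not pass (log2 difference 0.42 and 0.001, adjusted p = 0.369 and 0.999 from limma). By litter the median of this list was 1.51, 0.90 and 1.15 in litters 1, 2 and 3, beside Cdx2 differences of 1.40, 2.13 and -0.35. Visceral endoderm markers were also higher in RFC1-/- embryos, as given above, and the endoderm types were not separated here. The part of either list in the Cdx2 difference was not tested.

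The RFC1+/+ embryo of litter 2 stood apart in posterior genes. It was the only RFC1+/+ embryo that read as female, so among them sex cannot be told apart from other traits of this embryo. On its array 8 of the 18194 genes lay more than 1 log2 unit below all other arrays, while the other arrays had 0 to 3 such genes each. In the upward direction it had 0 such genes, and other arrays stood apart more, with 57 for the RFC1-/- embryo of litter 3 and 21 for the RFC1+/+ embryo of litter 1. In order of the downward gap the 8 genes were Cdx4 (2.60 below the next lowest array), Hoxc10 (2.37), Tbx4 (2.10), Hoxa10 (1.85), Hoxd13 (1.83), the unnamed transcript 2610528A11Rik (1.55), Hoxa9 (1.34) and Hoxd8 (1.33), of which Hoxd13 and 2610528A11Rik were noticed after their values were seen. Hoxc10, a Hox gene of the lumbar and hindlimb level, measured 6.48, 6.39 and 6.31 in the RFC1-/- embryos, against 7.92, 3.94 and 7.51 in the RFC1+/+ embryos. The RFC1+/+ values of litters 1 and 3 were thus above all RFC1-/- embryos and that of litter 2 below them. Without litter 2 the log2 difference of Hoxc10 was -1.32 (limma, adjusted p = 0.00427), against -0.07 with it (adjusted p = 0.982). Of 22 measured posterior axis genes, 14 were lowest in this embryo (63.6%), as were 12.9% of all genes, and among the fusion genes so were Cdx4, Tbx4, Cdx2 and Vcam1. Hoxb6, a gene expressed further forward, had no such gap, with 7.60, 7.69 and 7.56 in the RFC1-/- embryos and 7.60, 7.50 and 8.05 in the RFC1+/+ embryos. Nor was Wnt3a, a gene of the tail end, low in this embryo, which differed by 0.08 from the mean of the other RFC1+/+ embryos (7.04). Msgn1, Fgf8 and Hoxb9 differed from that mean by 0.16, 0.009 and 0.008. However, Fgf8 was at background level in both genotypes. Msgn1 and Hoxb9 were little above that level in the other RFC1+/+ embryos (5.50 and 5.66). Wnt5a, well above it, read 8.24 in this embryo against a mean of 8.46 in the other RFC1+/+ embryos. The sources used here do not say how complete the caudal end of each embryo was after dissection, and its part in the differences of Tbx4, Cdx2, Cdx4 and the Hox genes was not tested. As a group the posterior axis genes gave 1 call, Hoxa5, which was 1.54-fold lower in RFC1-/- embryos (adjusted p = 0.0294 from limma, 0.195 without litter 1 and 0.0604 without litter 2), and a median log2 difference of 0.03, which was -0.10 without litter 2. Cyp26a1, the retinoic acid breakdown enzyme of the tail bud, had a log2 difference of 0.78 (adjusted p = 0.0528, and 0.167, 0.137 and 0.00653 without litters 1, 2 and 3).

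**Figure D2:**
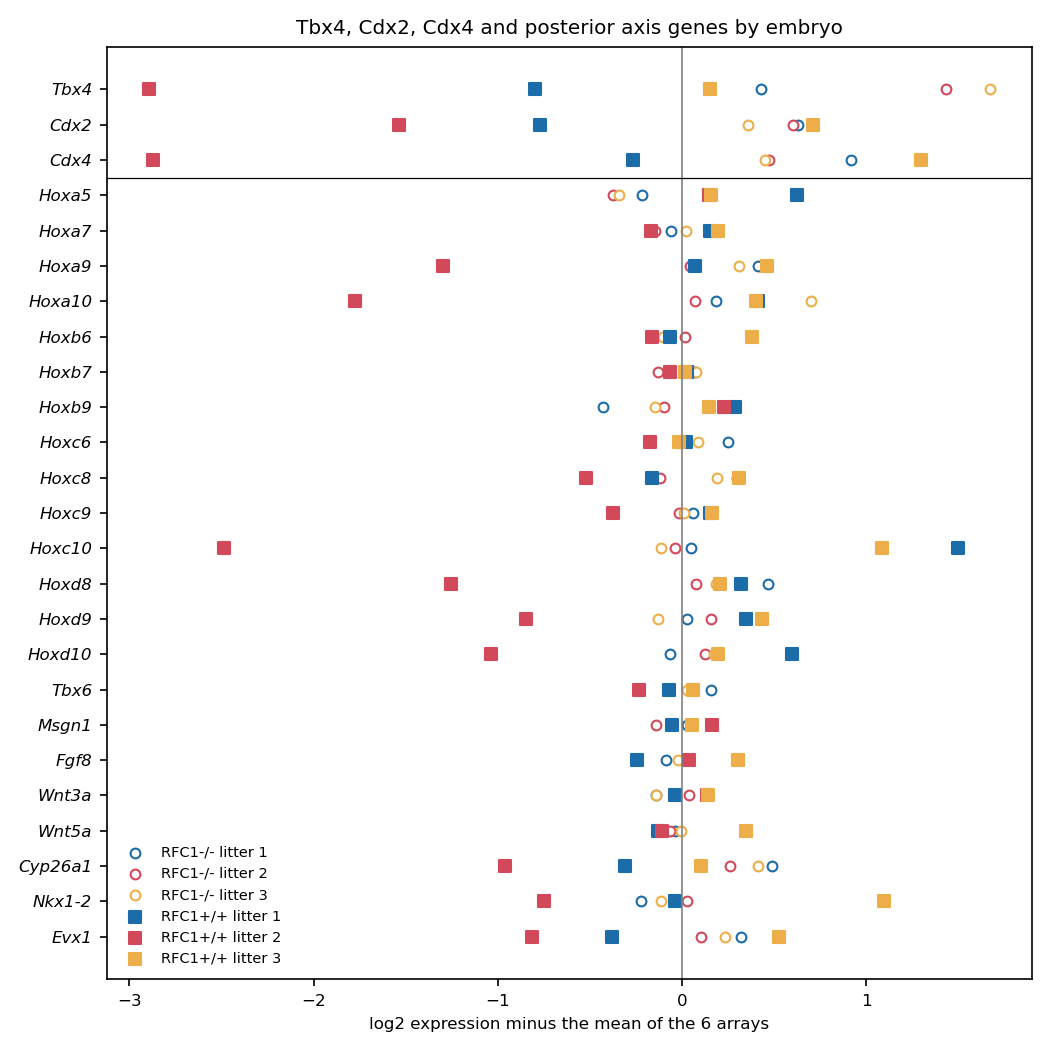
Log2 expression minus the mean of the 6 arrays (x axis) for Tbx4, Cdx2 and Cdx4 (top) and 22 posterior axis genes (y axis), with open circles for RFC1-/- embryos, filled squares for RFC1+/+ embryos and a colour for each litter. The red square of the RFC1+/+ embryo of litter 2 lies far to the left for Tbx4, Cdx4, Hoxc10, Hoxa10, Hoxa9 and Hoxd8 and near the other embryos for Hoxb6 and Wnt3a.

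The 3 fusion genes that were low together in that embryo are shown by their promoter windows, each 250 bases before and 50 bases after an annotated start site, 5′ to 3′ on the strand of the gene, from RefSeq on build GRCm38.p6 of the C57BL/6J reference. Capitals mark a match to a searched motif. The windows lie at chr11:85896515-85896814 on the plus strand for Tbx4 (a start inside the gene), chr5:147307200-147307499 on the minus strand for Cdx2 and chrX:103321148-103321447 on the plus strand for Cdx4.
Tbx4: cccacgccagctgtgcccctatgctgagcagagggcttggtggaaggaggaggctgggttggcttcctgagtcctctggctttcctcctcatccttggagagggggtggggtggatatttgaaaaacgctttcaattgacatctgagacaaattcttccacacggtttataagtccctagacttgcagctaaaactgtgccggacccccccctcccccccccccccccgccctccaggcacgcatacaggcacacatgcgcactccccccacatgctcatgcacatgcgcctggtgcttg
Cdx2: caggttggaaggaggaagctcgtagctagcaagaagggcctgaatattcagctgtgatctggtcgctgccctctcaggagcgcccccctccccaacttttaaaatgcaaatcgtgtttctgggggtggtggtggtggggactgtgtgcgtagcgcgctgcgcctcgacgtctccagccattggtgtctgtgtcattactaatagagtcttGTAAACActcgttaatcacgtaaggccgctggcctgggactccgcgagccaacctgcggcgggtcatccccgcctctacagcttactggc
Cdx4: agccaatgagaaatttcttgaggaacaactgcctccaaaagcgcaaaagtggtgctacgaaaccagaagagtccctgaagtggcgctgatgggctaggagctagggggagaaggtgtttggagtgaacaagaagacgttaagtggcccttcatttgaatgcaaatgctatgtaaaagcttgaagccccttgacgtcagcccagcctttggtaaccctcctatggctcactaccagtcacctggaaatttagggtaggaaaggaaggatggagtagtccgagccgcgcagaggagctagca

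Letters that match the sites of the factor families among the fusion genes, and of the SMAD factors that act below BMP signals, were searched on both strands of these windows. The motifs were CTTTGA for TCF and LEF factors, TTTATG for CDX, GGTGTGA for T-box, TGTTTAC for forkhead and GTCTAGAC for SMAD factors, and they occur in 16.0%, 11.9%, 3.98%, 3.65% and 0.213% of all 32851 windows. The Cdx2 window held 1 forkhead match, on the reverse strand and starting 40 bases before the start site, and the Tbx4 and Cdx4 windows held none of the 5. Of the other fusion genes, windows were at hand for Itga4, Lef1, Dnajb6 and Tcf7, and Vcam1, Foxf1 and Wnt7b had no entry. Itga4 held 1 T-box match, 1 of 4 Lef1 windows held 2 TCF/LEF matches, 1 of 2 Tcf7 windows held 1 forkhead match and Dnajb6 held none. A match describes letters in a window and not a site that a factor occupies.

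Dnajb6, which guides HSP70 and keeps keratin filaments of the chorion from clumping in mice, had nearly equal levels in both genotypes. It read 11.83, 11.71 and 11.80 (log2 units) in RFC1-/- embryos and 11.75, 11.75 and 11.88 in the RFC1+/+ embryos, with overlapping groups. The log2 difference was -0.01 with a 95% interval of -0.25 to 0.22 (limma, adjusted p = 0.976), and its 3 further probe sets gave 0.02, 0.01 and 0.15. None of 8 other genes of the DNAJB family, nor Hspa8, the constitutive HSP70 partner, passed in either direction. The keratins of simple epithelium on the same list were each higher in RFC1-/- embryos, 2.54-fold for Krt19, 2.18-fold for Krt18 and 2.11-fold for Krt8 (adjusted p = 0.00717, 0.00696 and 0.00699 from limma), and each kept its call without any of the litters. These keratins also mark yolk sac and gut epithelium, whose markers were higher in RFC1-/- embryos as given above. The part of these epithelia in the keratin differences was not tested.

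Wnt7b, the chorionic Wnt ligand, read 6.66, 7.06 and 6.88 in RFC1-/- embryos of litters 1, 2 and 3, against 7.23, 7.24 and 7.01 in their RFC1+/+ littermates. It was lower in the RFC1-/- embryo of each litter, but the RFC1-/- embryo of litter 2 was above the RFC1+/+ embryo of litter 3. The log2 difference was -0.29 (95% interval -0.58 to -0.01) and missed the threshold (limma, adjusted p = 0.260). Its other probe set, at background level, differed by -0.17. None of 10 receptors and co-receptors of Wnt7 ligands passed, and the closest were Reck, with a difference of 0.37 (adjusted p = 0.0876), and its partner Adgra2, with 0.50 (adjusted p = 0.141). Wnt7b is also made in the neural tube and other epithelia, and 11 of 12 neural progenitor markers were lower in RFC1-/- embryos (median log2 difference -1.19), with list means of 7.05 to 7.96 in RFC1-/- and 8.60 to 8.84 in RFC1+/+ embryos. Their part in the Wnt7b difference was not tested.

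Markers of the chorion itself were above background only in part. Of 11 measured markers of chorion and trophoblast, 6 had means above background in RFC1-/- and 5 in RFC1+/+ embryos, and Elf5, Eomes, Ovol2, Tpbpa and Ctsq were at background level in both. Plac1, a placental membrane gene, was 2.84-fold higher in RFC1-/- embryos, with values between 8.92 and 10.00 in RFC1-/- and between 7.52 and 8.36 in RFC1+/+ embryos (adjusted p = 0.0114 from limma). Spint1, an inhibitor of epithelial serine proteases, was 1.79-fold higher (adjusted p = 0.0392, 0.138 without litter 1 and 0.0558 without litter 2). The list had a median log2 difference of 0.07, and list means were 5.93 to 6.07 in RFC1-/- and 5.67 to 5.75 in RFC1+/+ embryos.

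Lef1, which turns on Wnt target genes with beta-catenin, read 8.74, 8.63 and 8.68 (log2 units) in RFC1-/- embryos and 8.83, 8.82 and 9.003 in the RFC1+/+ embryos. All RFC1-/- values were below all RFC1+/+ values, by small steps. The log2 difference was -0.20 (standard error 0.10, 95% interval -0.45 to 0.04) and missed the threshold (limma, adjusted p = 0.368). On its dimmer probe set the RFC1-/- embryos measured 5.84, 5.72 and 5.08 and the RFC1+/+ embryos 6.41, 5.51 and 6.08, with overlap and a difference of -0.46 (limma over all probe sets, adjusted p = 0.381). Of 17 measured nuclear partners and targets of Wnt signals, 1 was higher, none was lower and the median log2 difference was -0.03. Dkk1, a secreted Wnt inhibitor that is also a Wnt target, was 2.05-fold higher in RFC1-/- embryos (adjusted p = 0.0248 from limma, 0.0906 without litter 1 and 0.0656 without litter 2). Axin2, a general Wnt target, had a difference of -0.14 (adjusted p = 0.541), Tcf7l1 of 0.03 (adjusted p = 0.946) and Tcf7l2 of -0.27 (adjusted p = 0.199).

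Among 18 other measured genes tied to the allantois or to its attachment, 2 were higher, 1 was lower and 15 did not pass, with a median log2 difference of 0.02, where 3.67% of all genes were higher and 1.65% lower. Bmp4 measured 9.29, 9.38 and 9.03 in the RFC1-/- embryos against 8.04, 7.80 and 8.50 in the RFC1+/+ embryos, with no overlap, and its call is given above. Ccn1, a matrix protein that binds integrins, was 1.69-fold higher (adjusted p = 0.0136 from limma, 0.0832 without litter 1). Fgfr2, a receptor that supports trophoblast and limb outgrowth, was 1.45-fold lower (adjusted p = 0.0345 from limma), a call that ended without litter 1, 2 or 3 (adjusted p = 0.143, 0.0948 and 0.0541). Plpp3, a lipid phosphatase, had a difference of -0.47 (adjusted p = 0.0633), Bmp5 of 0.50 (adjusted p = 0.120) and Bmp7 of 0.25 (adjusted p = 0.231). Of 10 allantois markers, Bmp4 was the only one called, and the median of the list was 0.33, or 0.03 without litter 2.

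**Figure D3:**
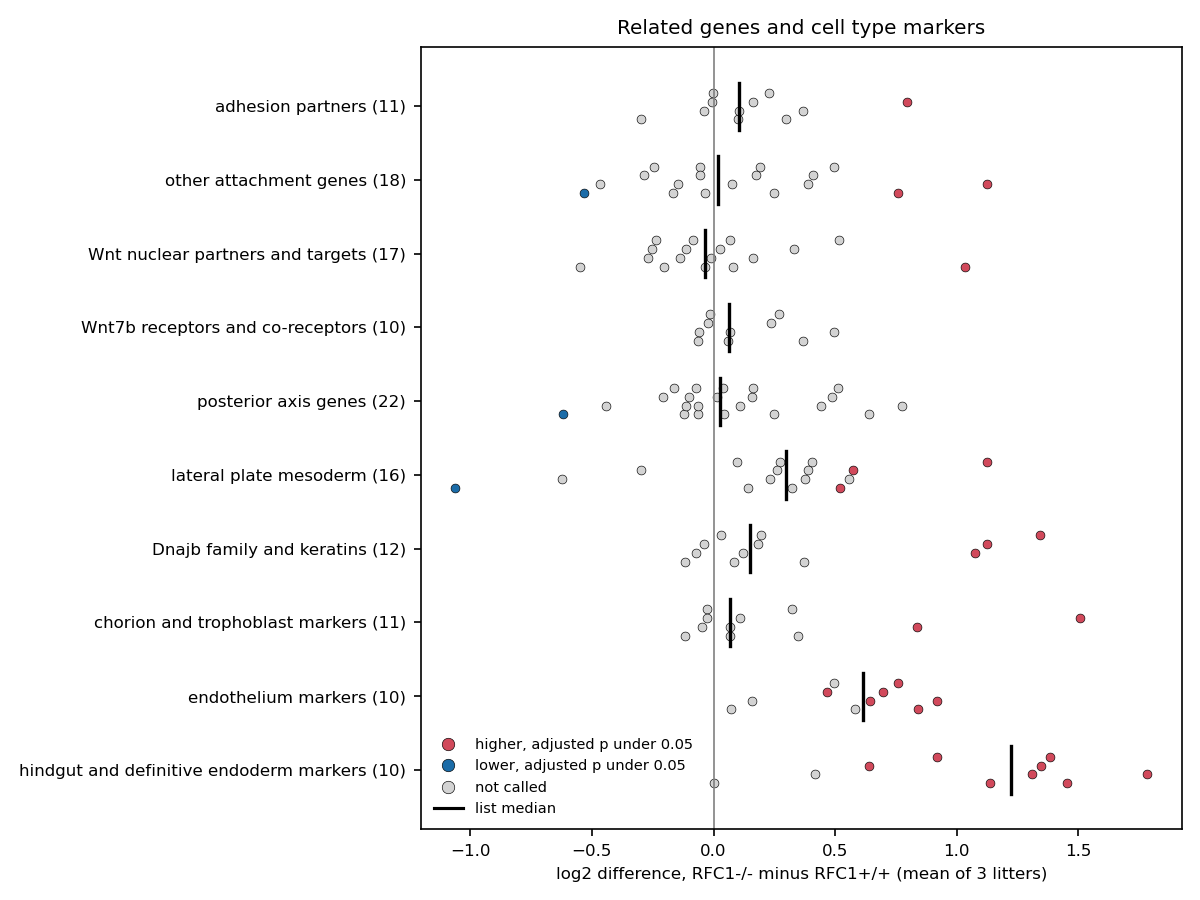
Mean log2 difference of 3 litters, RFC1-/- minus RFC1+/+ (x axis), for each measured gene of 10 lists of related genes and cell type markers (y axis, number of genes in brackets). Red and blue points passed an adjusted p of 0.05 higher and lower, grey points did not, and black bars are list medians, from -0.03 for Wnt nuclear partners and targets to 1.22 for hindgut and definitive endoderm.

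Over all 23 probe sets of the fusion genes, 1 passed when p-values were adjusted over all 45101 probe sets, of which 2.75% passed (1.87% higher and 0.882% lower), and it was the brightest of Vcam1 (adjusted p = 0.0439 from limma). This call ended after median centring (adjusted p = 0.0533), after a second quantile normalization (adjusted p = 0.0534), under the variation filter (adjusted p = 0.0750) and without litter 2 or 3 (adjusted p = 0.140 and 0.0669). The 2 probe sets of Tbx4 both lay above 0 in each litter, as did the 2 brighter ones of Vcam1, while those of Lef1 and Wnt7b had means below 0. Probe sets of Cdx2 and Foxf1 differed in size, with the dimmer of each near 0.

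**Figure D4:**
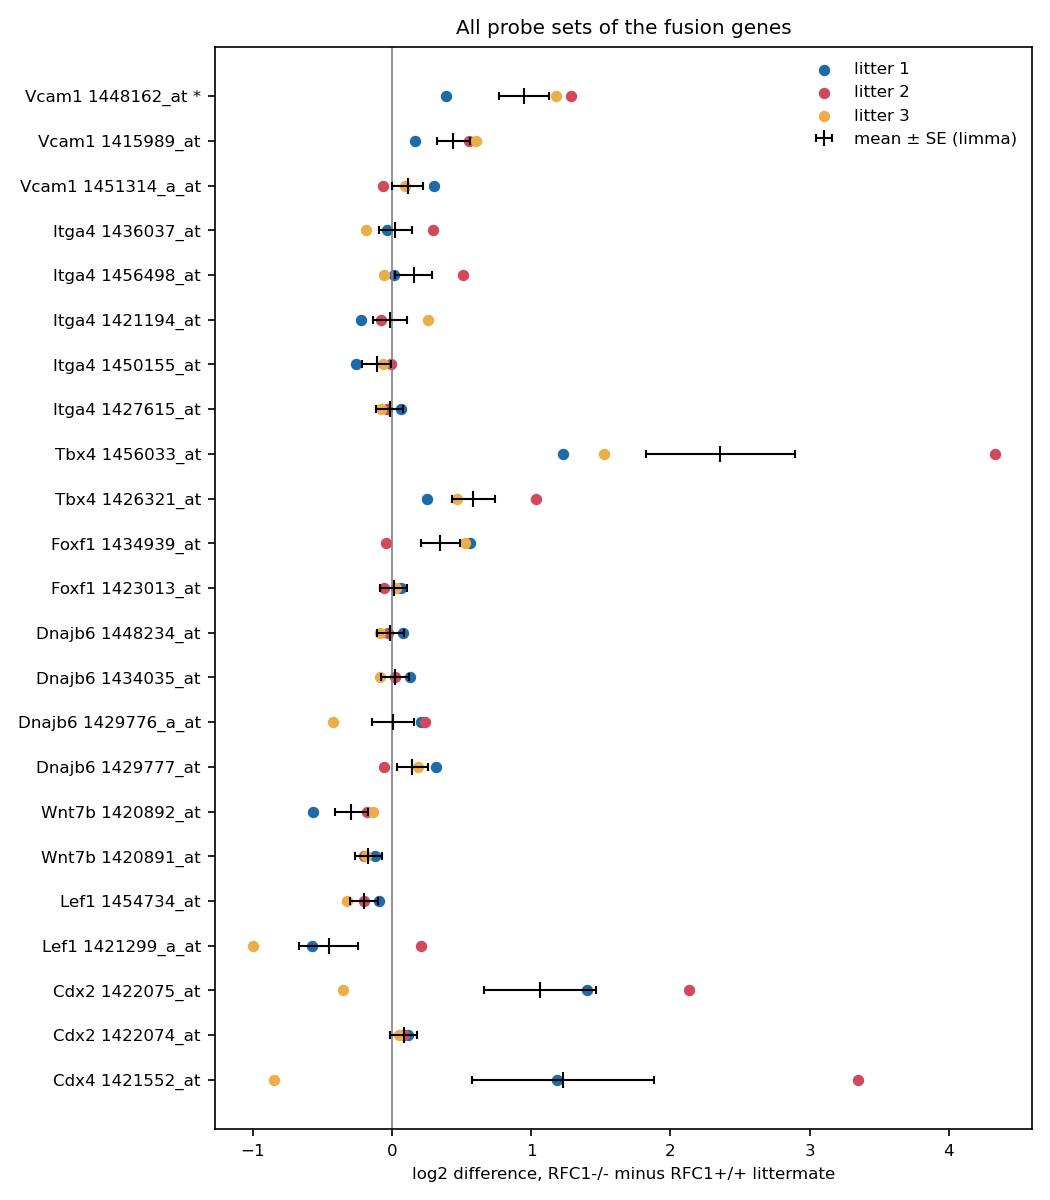
Log2 difference between the RFC1-/- embryo and its RFC1+/+ littermate (x axis) for the 23 probe sets of the 9 measured fusion genes (y axis, brightest first within a gene), with coloured points for the 3 litters and black marks for the mean ± 1 standard error from limma. The star marks the Vcam1 probe set that passed, at 0.95, and the means run from -0.46 for the dimmer Lef1 probe set to 2.36 for Tbx4.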

How the data were processed

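RNA of 6 whole embryos, 3 RFC1-/- and 3 RFC1+/+ littermates, was labelled with the 2-cycle kit from 100 ng and hybridized to 1 array each. The authors deposited log2 expression values made by RMA, with background correction, quantile normalization and median polish, and no source used here gives its version. With 45101 probe sets the table is complete, before any variation filter, and 0 columns of values were left unused. Quantile normalization across arrays assumes like distributions, and array values compress large differences.

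Differences (RFC1-/- minus RFC1+/+) were fitted in R 4.3.3 by limma 3.58.1, with the litter as a block, and p-values were adjusted by Benjamini-Hochberg at 0.05. One fit covered 18194 genes on the probe set with the highest mean, and another covered all probe sets. The platform annotation gave 1 symbol for 34958 probe sets, several for 932 and none for 9211. Of those with 1 symbol, 34754 matched a RefSeq gene ID and 0 changed name. Tcf7 had no probe set of its own in it. Pairing comes from the labels and methods, which name littermates. Deviations from the group means correlated at 0.10, -0.05 and -0.15 between littermates of litters 1, 2 and 3. Between RFC1-/- and RFC1+/+ embryos of different litters they correlated at -0.12 to 0.16, so littermates were not more alike by this measure. Embryos are the replicates. Tables used pandas 2.3.3 under Python 3.11.15 and plots matplotlib 3.10.9, and the fits were tested on simulated data.

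The genes, lists and tests were chosen with earlier results of these data known. Named genes are all fusion genes with every probe set, Slc19a1, up to 4 list genes past the threshold with the largest difference, list genes past it against the direction of most, and list genes without a call that share a family, complex or receptor with a fusion gene. Genes standing apart in 1 embryo, and those set beside them, were picked after values were seen. Alternatives were no block, the random-variance paired test of the methods, an intensity trend, a second quantile normalization, median centring, dim probe sets left out, the variation filter, embryo sex as a covariate, other choices of probe set, adjustment over all probe sets, and each litter left out.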

Additional observations from a re-analysis of the deposited data

How the results depend on the processing

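The count of 1 fusion gene called stayed at 1 in limma without the litter as a block (1156 genes called in all, against 968 with it), in the random-variance paired test, after both further normalizations, without dim probe sets, with adjustment over all probe sets and with both other choices of probe set. It became 2 with an intensity trend (Vcam1 and Tbx4) and 4 with the variation filter or with embryo sex as a covariate (Vcam1, Tbx4, Cdx2 and Cdx4), and it ran from 1 to 3 when 1 litter was left out. Over all genes, 416 were called with the variation filter, 1796 with embryo sex, which leaves 1 residual degree of freedom, and 355 to 1199 without 1 litter. The sex term rested on litters 2 and 3, whose pairs differed in sex in opposite ways. It thus took up the contrast between these litters, including that of the low RFC1+/+ embryo of litter 2. Called probe sets of the fusion genes numbered 3 with the variation filter, 5 with embryo sex, 2 with the trend, 0 after median centring or a second quantile normalization, and 1 to 3 without 1 litter. With the variation filter the fit over genes gave the fusion genes past it the same standard error, so their own spread between litters did not enter. The 95% interval was thus as wide for Vcam1 (0.233 to 1.665) as for Cdx4 (0.512 to 1.944). Other reasons for the shifts were not tested. Differences near 0 changed sign and stayed uncalled. Dnajb6 was 0.041 on the mean of its probe sets and 0.15 on the one that changed most. With 1 litter left out, the probe sets of Dnajb6 ran from -0.059 to 0.024 (the brightest), -0.034 to 0.075 and -0.108 to 0.223, those of Itga4 from -0.112 to 0.131 (the brightest), -0.023 to 0.262, -0.151 to 0.089 and -0.056 to 0.013, and the dimmer one of Foxf1 from -0.015 to 0.049. The Itga4 probe set with the range from -0.151 was 0.008 after a second quantile normalization.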
